A study of Homo sapiens with 13 samples.

Results

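The elements described here are 7149 designed sequences of a lentiviral reporter library whose activity was measured in a pair of human cell lines: TC28a2, made by immortalizing chondrocytes, and SW1353, derived from a chondrosarcoma and often used in place of chondrocytes. They were chosen as those with 10 or more filled DNA slots in every replicate of each line, where a slot is one of up to 500 barcode places that the files give each element. Of 9769 elements in the series, 7236 were in the counts of both lines, and 87 of these had too few DNA slots. The 7149 comprised 1552 reference and 4415 alternative alleles at positions associated with adolescent idiopathic scoliosis, 991 peaks named for cartilage and 191 scrambled controls. Both lines carried the same kind of library and were harvested 48 h after infection, with DNA and RNA isolated together. There were 3 DNA and 3 RNA libraries of each line, 12 in all, and the labels do not say whether the replicates were separate cultures. P-values therefore measure the spread between these libraries, which may be technical.

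In a lentiviral massively parallel reporter assay, each candidate regulatory sequence drives transcription of a reporter that carries a barcode, and the virus inserts the construct into the genome of the host cell. The RNA of an element relative to its integrated DNA measures how strongly its sequence drives transcription in that cell. Promoters of widely expressed genes are usually active in many lines, whereas enhancers depend on the transcription factors that a cell makes. Chondrocytes build cartilage and form the growth plates of the spine, and a chondrosarcoma is a tumour of cartilage-forming cells. With 1 line of each kind, a difference between these lines cannot be told apart from one between an immortalized and a tumour cell.

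Activity below is log2 of the RNA over the DNA count of an element, summed over slots and scaled between libraries by TMM factors (trimmed mean of M values), so that 0 is the level of the bulk of elements. The difference between lines is SW1353 minus TC28a2 on this scale, fitted with edgeR's quasi-likelihood test as an interaction of RNA against DNA with line. It is a difference relative to the bulk of the library, not an absolute one. The submitters' processing notes name the build hg19, on which all coordinates are given, and the first base of a chromosome is 1. An allele is written as the reference base, the position and the alternative base. Genes named beside elements come from general knowledge of hg19, not from the files. Sequences of elements are not printed because no genome of that build was at hand.

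The lines differed in how many barcodes gave RNA. Total counts over the 7149 elements were 5521909 to 5736415 in TC28a2 DNA, 10479205 to 10511603 in SW1353 DNA, 22043376 to 22204383 in TC28a2 RNA and 23338855 to 23410407 in SW1353 RNA. The median element filled 185 to 195 DNA slots in TC28a2 and 193 to 194 in SW1353. In RNA it filled 233 to 235 slots in TC28a2 and 104 to 105 in SW1353. The SW1353 RNA counts thus lay in fewer slots, with more counts in each. Because slots end at 500, an element that reached the last slot may have had more barcodes than were listed. This held for 22.2% of elements in TC28a2 DNA, 25.5% in TC28a2 RNA, 20.8% in SW1353 DNA and 10.03% in SW1353 RNA. The 1935 elements that reached slot 500 in any of these were kept apart from the 5214 that stayed below it. Of the cartilage peaks 24.9% stayed below slot 500, compared with 80.7% of reference elements, 80.5% of alternative elements and 83.2% of scrambled controls.

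The activities of the shared elements were much alike in both lines. Over the 5214 elements below slot 500, mean activities correlated with r = 0.73 (Spearman's rho = 0.66), as a description across elements, which share libraries and are not independent. Single replicates of different lines correlated with r = 0.46 to 0.48, and single replicates of the same line no more closely (0.46 to 0.47 in TC28a2 and 0.45 to 0.47 in SW1353). Of the 261 most active elements in each line, 142 were shared, 54.4% of either list. The cartilage peaks below slot 500 had the widest spread of activity, and their activities correlated with r = 0.93 between lines over 247 peaks. The scrambled controls below slot 500 correlated with r = 0.64 over 159 controls. At slot 500 the picture was different. There, replicates of different lines correlated with r = 0.76 to 0.78, below those of the same line (0.83 to 0.84 in TC28a2 and 0.89 in SW1353).

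Activities were spread more widely in SW1353. The SD of activity over elements below slot 500 was 0.47 in SW1353 and 0.39 in TC28a2, a ratio of 1.20. The ratio was 1.17 for reference elements, 1.21 for alternative elements, 1.14 for cartilage peaks and 1.33 for scrambled controls. With elements ordered by the mean activity of both lines, the median difference went from -0.22 for the 765 elements below -0.5 to -0.04 for the 1633 elements from 0 to 0.5 and to 0.35 for the 27 elements above 1.5. Cartilage peaks alone went from -0.01 over 27 peaks to 0.28 over 22 peaks of the same classes, with -0.10 over the 79 peaks from -0.5 to 0. This trend is a description and adds no result to the spread. The mean and the difference share their values, so a wider spread in 1 line gives such a trend by itself.

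Below slot 500, the median activity of each class lay lower in SW1353, most for scrambled controls and least for cartilage peaks. The median activity of reference elements was -0.10, -0.06 and -0.08 in the replicates of TC28a2 and -0.16, -0.18 and -0.17 in those of SW1353. Alternative elements gave -0.07, -0.08 and -0.07 in TC28a2 and -0.17, -0.16 and -0.17 in SW1353. For single elements below slot 500, all SW1353 replicates lay above all TC28a2 replicates in 190 (3.64%) and all TC28a2 replicates above in 451 (8.65%). Over all 7149 elements these were 935 (13.1%) and 523 (7.32%). Scrambled controls, which keep no designed regulatory sequence and serve as the background, had medians of -0.38, -0.27 and -0.34 in TC28a2 and -0.64, -0.60 and -0.52 in SW1353. Cartilage peaks had 0.15, 0.17 and 0.15 in TC28a2 and 0.10, 0.13 and 0.07 in SW1353. In none of the 4 classes did the medians of the replicates overlap between lines. The median over elements of the fitted difference was -0.10 for reference elements, -0.11 for alternative elements, 0.04 for cartilage peaks and -0.26 for scrambled controls, beside -0.10 for all 5214 elements. For cartilage peaks it thus had the opposite sign to the difference between the median activities. The zero of this scale depends on the scaling. The median difference of all 7149 elements was -0.04 with TMM factors and -0.22 with library totals alone. It was 0.18 when differences were centred on the median difference of the scrambled controls. Per filled slot, in place of the sum, the median differences were 0.014 for reference elements, 0.0083 for alternative elements, 0.085 for cartilage peaks and 0.088 for scrambled controls, so the place of the scrambled controls below the other classes was not kept.

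Most differences that passed the test belonged to cartilage peaks at slot 500. The edgeR fit over all 7149 elements, with p-values adjusted by Benjamini-Hochberg and a threshold of 0.05, called 451 elements (6.31%) higher in SW1353 and 6 (0.0839%) higher in TC28a2. At slot 500 it called 440 of 1935 (22.7%) higher in SW1353 and 2 (0.103%) higher in TC28a2. Below slot 500 it called 11 of 5214 (0.211%) and 4 (0.0767%). Cartilage peaks made up 374 of the 451 elements called higher in SW1353, 369 of them among the 744 peaks at slot 500 and 5 among the 247 below it. No peak was called higher in TC28a2 by edgeR, where 12 of 991 had an unadjusted p under 0.05 in that direction. With library totals in place of TMM factors edgeR called 198 elements higher in SW1353 and 32 higher in TC28a2, and below slot 500 it called 1 and 21. With differences centred on the median difference of the scrambled controls it called 874 and 1, and 71 and 1 below slot 500. The direction of the calls below slot 500 therefore followed the scaling, whereas SW1353 was on the higher side for most calls in the whole set under all 3 scalings. The calls also depended on how the variance was modelled. limma on log2 ratios gave 0 calls without a variance trend (smallest adjusted p = 0.0794, with 695 elements higher in SW1353 and 302 higher in TC28a2 at an unadjusted p under 0.05) and 448 and 11 with one, and DESeq2 gave 621 and 20.

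The cartilage peaks with the largest differences were 1.20 to 1.53 higher in SW1353 on the log2 scale, about 2.30-fold to 2.88-fold, and all 5 had reached slot 500 in all 4 kinds of library. Elements and positions named for the size of their difference were picked among calls whose replicates did not overlap between lines. For these, non-overlap was set by the choice and adds no support. The peak at chr9:130953739-130953939 had activities of 0.24, 0.48 and 0.51 in TC28a2 and 1.90, 2.04 and 1.86 in SW1353. All SW1353 replicates lay well above all TC28a2 replicates, and the difference was 1.53 (SE 0.12, n = 3 a line, edgeR adjusted p = 3.61e-05). The peak at chr19:39339918-39340118, at the start of HNRNPL, which encodes an RNA-binding protein of splicing, had 0.86, 0.72 and 0.77 in TC28a2 and 2.03, 1.90 and 2.02 in SW1353. Its difference was 1.20 (SE 0.12, edgeR adjusted p = 0.000147), with the replicates of each line close together. The peak at chr11:62554513-62554713 stood at -0.11, -0.14 and -0.18 in TC28a2, at the level of the bulk or just below, and at 1.51, 0.77 and 1.37 in SW1353. Its difference of 1.36 (SE 0.17, edgeR adjusted p = 0.000508) rested on SW1353 replicates that varied more among themselves. The peaks at chr10:38265210-38265410, at the start of the zinc-finger gene ZNF25, and at chr2:201676146-201676346, at the start of BZW1, differed by 1.21 (SE 0.13) and 1.20 (SE 0.13), each with an edgeR adjusted p of 0.000194. All 5 calls held in edgeR when any 1 replicate of either line was left out, and none passed in limma without a variance trend (adjusted p = 0.0794 to 0.0849).

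For the typical peak at slot 500 the difference lay in the number of filled slots. The sum of an element is the number of its filled slots multiplied by the mean count in them, so its difference splits into these parts. Relative to the median of all elements, the slot part of the 744 peaks at slot 500 had a median of 0.64 and the count part a median of 0.00. The 5 peaks just described had slot parts of 0.63 to 0.89 and count parts of 0.50 to 0.78. They were chosen for a large difference of the sum, a choice that favours high values of both parts. Among the 654 elements of any class that reached slot 500 in DNA and RNA of both lines, the median difference was 0.57 and 383 were called higher in SW1353. Their slot part had a median of 0.68 and their count part one of -0.04. For the 183 elements that had reached it in TC28a2 DNA and RNA only, the median difference was -0.07 and 4 were called. Cartilage peaks whose highest last slot was 450 to 499 had a median difference of 0.05 over 47 peaks, and those at 500 had 0.52 over 744 peaks. Among the latter the median was -0.10 over 23 peaks at slot 500 in TC28a2 RNA only, 0.10 over 34 in TC28a2 DNA and RNA, 0.22 over 145 with SW1353 DNA as well and 0.64 over 460 in all 4 kinds of library. Scrambled controls went from -0.11 over 14 to -0.05 over 32. The other classes also had a positive median at slot 500 in all 4 kinds of library. It was 0.42 over 45 reference elements, 0.41 over 143 alternative elements and 0.45 over only 6 scrambled controls. Their slot parts had medians of 0.67, 0.65 and 0.59, beside 0.69 for the 460 peaks. The part of the lost barcodes in the result was not tested, since slots past 500 were not analysed here.

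With the mean count per filled slot in place of the sum, few single elements passed. limma with a variance trend then called 3 elements higher in SW1353 and 13 higher in TC28a2, over all 7149. Of these 16 elements, 4 were also called on sums. Of the 13 higher in TC28a2, 12 were at slot 500 and 1 was below it. The 3 higher in SW1353 were cartilage peaks at slot 500 that were also called on sums. They lay at chr9:130953739-130953939, chr19:39339918-39340118 and chr1:1334676-1334876. Their differences were 0.68, 0.63 and 0.57 per filled slot, against 1.53, 1.20 and 1.15 on sums (limma adjusted p = 0.0293, 0.0392 and 0.0295). The peak on chromosome 1 is named outside the rule, with its values known. The peaks on chromosomes 11, 10 and 2 kept differences of 0.75, 0.51 and 0.51 per filled slot without passing (limma adjusted p = 0.162, 0.0873 and 0.120). Of the 369 peaks at slot 500 called on sums, 266 (72.1%) lay above 0 per filled slot, beside 42.9% of all elements at slot 500. For the 69 variant elements at slot 500 called higher in SW1353 on sums the share was 58.0%. These shares are no test, because the count per filled slot is part of the sum by which the called elements were chosen. More passed per filled slot among variant positions, with the counts of their elements summed. There limma with a trend called 23 of 1556 positions higher in SW1353 and 44 higher in TC28a2. On sums edgeR called 74 and 5, and 14 of the 67 positions called per filled slot were among them. At slot 500 the calls per filled slot were 2 and 34, mostly higher in TC28a2.

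Among elements below slot 500 the calls stood close to the threshold. The 15 calls had edgeR adjusted p-values from 0.0032 to 0.0442 when adjusted over all 7149 elements. Adjusted over the 5214 elements below slot 500 alone, the same edgeR p-values gave no call, with a smallest adjusted p of 0.343, and 87 elements higher in SW1353 and 235 higher in TC28a2 had an unadjusted p under 0.05. An edgeR fit to these elements alone also gave no call (smallest adjusted p = 0.271), with 176 and 90 at an unadjusted p under 0.05, and limma without a variance trend gave none in the fit of all elements. DESeq2 on all elements called 25 and 14. Of these 7 were among the 15, and DESeq2 gave the other 8 no adjusted p. Per filled slot none of the 15 passed (limma with a variance trend, adjusted p = 0.0873 to 0.758). The threshold in the fit of all elements was thus set by the many calls at slot 500. The elements in the next paragraphs are given with that limit.

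The 5 cartilage peaks called below slot 500 were all higher in SW1353. The peak at chr8:103819037-103819237 had activities of 1.42, 1.76 and 1.69 in TC28a2 and 2.55, 2.19 and 2.51 in SW1353, so that it was among the most active elements of both lines and its replicates did not overlap. Its difference of 0.79 (SE 0.14, 1.73-fold, edgeR adjusted p = 0.0032) had the smallest p of all elements below slot 500 and held without any 1 replicate, and with library totals. It rested on a mean of 271 filled DNA slots in TC28a2 and 299 in SW1353. The peak at chr16:89788061-89788261 went from -0.25, -0.50 and -0.47 in TC28a2, below the bulk of elements, to 0.29, 0.67 and 0.44 in SW1353, above it. This gave a difference of 0.87 (SE 0.19, edgeR adjusted p = 0.00972), with an edgeR adjusted p of 0.0522 when SW1353 replicate 2 was left out.

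The peak at chr17:42297236-42297436, near the start of UBTF, which encodes a factor of ribosomal RNA gene transcription, had 0.99, 0.54 and 0.57 in TC28a2 and 1.67, 1.57 and 1.22 in SW1353. Its difference was 0.78 (SE 0.19, edgeR adjusted p = 0.0220). The peak at chr4:77996473-77996673, near the start of the cyclin-family gene CCNI, had 0.88, 1.07 and 1.11 in TC28a2 and 1.93, 1.59 and 1.49 in SW1353, a difference of 0.65 (SE 0.17, edgeR adjusted p = 0.0312). Neither peak overlapped between lines. The peak at chr12:49503861-49504061 was close to constant in SW1353 at 2.14, 2.14 and 2.14, and had 1.75, 1.56 and 1.54 in TC28a2. It differed by 0.53 (SE 0.14, edgeR adjusted p = 0.0367). Each of these 3 calls was lost without some replicates. The UBTF peak lost it without TC28a2 replicate 2 or 3 or SW1353 replicate 1 or 2 (edgeR adjusted p = 0.0858 to 0.108). The CCNI peak lost it without any TC28a2 replicate or without SW1353 replicate 1 or 2 (0.0637 to 0.161), and the peak on chromosome 12 without TC28a2 replicate 2 or 3 or any SW1353 replicate (0.0937 to 0.123).

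Variant positions had smaller errors than single alleles, with a median SE of 0.14 beside 0.25 for reference and for alternative elements. The reference and up to 3 alternative elements of a position differ in the allele only, so their counts were summed. A sum can still be carried by 1 allele. Over 1556 positions edgeR called 74 (4.76%) higher in SW1353 and 5 (0.321%) higher in TC28a2. Of 1189 positions with no element at slot 500, 11 (0.925%) were higher in SW1353 and 3 (0.252%) higher in TC28a2. Of 367 positions at slot 500, 63 (17.2%) and 2 (0.545%) were. Adjusted over the 1189 positions alone the same edgeR p-values gave no call, with a smallest adjusted p of 0.0508 and 50 higher in SW1353 and 81 higher in TC28a2 at an unadjusted p under 0.05. Replicates did not overlap at 175 (11.2%) of the 1556 positions with SW1353 above and at 153 (9.83%) with TC28a2 above. A fit to the positions below slot 500 alone called 9, all higher in SW1353 and all among the 11. Of the 8 positions below slot 500 described next, limma without a variance trend called none (adjusted p = 0.0824 to 0.214), and per filled slot limma with a trend called 1.

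The position with the largest difference below slot 500 was 3125811 of chromosome 8, in CSMD1, a gene of a large membrane protein with complement control domains. Summed over its 4 elements it had activities of 1.24, 1.42 and 1.27 in TC28a2 and 2.27, 1.83 and 1.91 in SW1353. It was highly active in both lines, and all SW1353 replicates lay above all TC28a2 replicates. The difference was 0.69 (SE 0.14, 1.62-fold, edgeR adjusted p = 0.00504), it held when any 1 replicate was left out, and it held in the fit below slot 500 (0.76, edgeR adjusted p = 0.0167). Per filled slot it was 0.39 and did not pass (limma adjusted p = 0.107). All 4 alleles lay on the same side: the reference differed by 0.61, A3125811C by 0.18, A3125811G by 0.42 and A3125811T by 1.16. Only A3125811T passed as a single element (SE 0.29, edgeR adjusted p = 0.0260), with 1.01, 1.20 and 1.25 in TC28a2 and 3.07, 1.89 and 1.98 in SW1353. That call was lost without any TC28a2 replicate or without SW1353 replicate 1 (0.0667 to 0.111), where SW1353 replicate 1 was the highest value.

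Of the 5 positions with the largest differences toward SW1353 below slot 500, 3 lay on chromosome 20 in the region of PAX1, a paired-box transcription factor gene of the sclerotome, from which vertebrae form. This locus held 183 of the 1189 positions below slot 500, and also 1 of the 3 called higher in TC28a2. Whether it held more calls than its size would give was not tested. Position 21861246 had 0.45, 0.19 and 0.38 in TC28a2 and 0.97, 0.94 and 0.64 in SW1353. Its difference was 0.51 (SE 0.11, edgeR adjusted p = 0.00661), and its 4 elements differed by 0.26 to 0.57. Per filled slot it differed by 0.17 (limma adjusted p = 0.210). Position 21957783 had 0.54, 0.69 and 0.54 in TC28a2 and 1.23, 1.09 and 0.86 in SW1353. It differed by 0.47 (SE 0.10, edgeR adjusted p = 0.00528), with 0.30 to 0.55 over its elements, but by 0.03 per filled slot (limma adjusted p = 0.874). Both passed in the fit below slot 500 (edgeR adjusted p = 0.0167 each). The first lost its call without TC28a2 replicate 2 or SW1353 replicate 1 (0.0536 and 0.0691) and the second without TC28a2 replicate 3 (0.0630).

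Position 21858742 of chromosome 20 had 0.16, 0.18 and 0.18 in TC28a2 and 0.66, 0.43 and 0.97 in SW1353, a difference of 0.51 (SE 0.12, edgeR adjusted p = 0.0164). Among its alleles the largest difference was that of T21858742G, which had -0.20, 0.01 and -0.11 in TC28a2 and 0.44, 0.85 and 1.25 in SW1353, a difference of 0.95 (SE 0.20, edgeR adjusted p = 0.00972) that was lost without SW1353 replicate 3 (0.0594). The other 3 elements of the position differed by 0.13 to 0.30, and none of them passed. Per filled slot the position differed by 0.39 (limma adjusted p = 0.0624). It lost its call without any TC28a2 replicate or without SW1353 replicate 1 or 3 (0.0543 to 0.100). Position 85254679 of chromosome 4 had 0.08, 0.11 and 0.13 in TC28a2 and 0.57, 0.47 and 0.74 in SW1353. It differed by 0.49 (SE 0.12, edgeR adjusted p = 0.0176), all 4 elements lay above 0 at 0.25 to 0.73, and per filled slot it differed by 0.24 without passing (limma adjusted p = 0.14). With library totals the edgeR adjusted p was 0.0527, and the call was lost without any TC28a2 replicate or without SW1353 replicate 3 (0.0691 to 0.0910).

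The positions higher in TC28a2 below slot 500 numbered 3. At position 102979207 of chromosome 10, near the homeobox gene LBX1, which acts in muscle precursors and spinal neurons, the activities were -0.06, -0.23 and -0.004 in TC28a2 and -0.83, -0.89 and -0.49 in SW1353. The position was at the level of the bulk in TC28a2 and below it in SW1353, by 0.64 in size (difference -0.64, SE 0.16, edgeR adjusted p = 0.0208). All 4 elements lay below 0. T102979207A was lowest, with 1.15, 0.51 and 0.11 in TC28a2 and -1.49, -0.61 and -0.43 in SW1353, a difference of -1.43 (SE 0.35, edgeR adjusted p = 0.0235), and the other 3 lay between -0.50 and -0.36 and did not pass. Without the highest slot of each element T102979207A differed by -0.85 (edgeR adjusted p = 0.0568). Its call was also lost without TC28a2 replicate 1 or 2 or SW1353 replicate 1 (0.0709 to 0.140), and that of the position without any replicate other than SW1353 replicate 3 (0.0507 to 0.135). Per filled slot the position differed by -0.37 (limma adjusted p = 0.0899).

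At position 82925918 of chromosome 16, in CDH13, which encodes a cadherin without a transmembrane part, activities were 0.34, 0.49 and 0.01 in TC28a2 and -0.06, -0.24 and -0.19 in SW1353. The difference was -0.45 (SE 0.12, edgeR adjusted p = 0.0435), with its elements at -0.84 to -0.24. Without the highest slot of each element it was -0.20 and did not pass (edgeR adjusted p = 0.165), and per filled slot it was -0.50 and passed (limma adjusted p = 0.0169). At position 21856148 of chromosome 20, in the region of PAX1, they were 0.23, -0.07 and -0.02 in TC28a2 and -0.39, -0.36 and -0.46 in SW1353, a difference of -0.44 (SE 0.12, edgeR adjusted p = 0.0423) with elements at -0.61 to -0.38 and of -0.24 per filled slot (limma adjusted p = 0.191). None of the single elements of either position passed. The first lost its call without TC28a2 replicate 1 or 2 or any SW1353 replicate (0.0555 to 0.249), and the second without any 1 replicate (0.0612 to 0.238). None of the 3 positions passed in the fit below slot 500 (edgeR adjusted p = 0.148 to 0.288), and none when differences were centred on the scrambled controls (0.0643 to 0.180).

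The positions at slot 500 with the largest differences are named outside the rule, with their values known. Position 1274582 of chromosome 7, in the region of UNCX, a homeobox gene of the somites, had 0.19, -0.05 and 0.14 in TC28a2 and 1.01, 1.01 and 0.94 in SW1353. Its difference of 0.89 (SE 0.08, edgeR adjusted p = 1.93e-06) was shared by all 4 elements, at 0.71 to 1.06, each of which passed as a single element. Per filled slot it was 0.27 (limma adjusted p = 0.0382). Position 228133322 of chromosome 1, in the region of WNT9A, which encodes a Wnt ligand of joint formation, had 0.83, 0.88 and 0.75 in TC28a2 and 1.60, 1.63 and 1.67 in SW1353. It differed by 0.81 (SE 0.07, edgeR adjusted p = 1.47e-06), with all 4 elements called at 0.51 to 0.97, but by 0.09 per filled slot (limma adjusted p = 0.397). Position 102982648 of chromosome 10, near LBX1, differed by 0.86 (SE 0.11, edgeR adjusted p = 4.96e-05), with elements at 0.55 to 1.05, and by 0.33 per filled slot (limma adjusted p = 0.0592). These 3 positions kept their call without any 1 replicate.

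In the other direction at slot 500 edgeR called position 19757339 of chromosome 22, in the region of the T-box gene TBX1, and position 142703669 of chromosome 6, in ADGRG6, an adhesion receptor gene with roles in myelin and cartilage. The first had -0.32, -0.09 and -0.14 in TC28a2 and -0.64, -0.56 and -0.48 in SW1353, a difference of -0.38 (SE 0.10, edgeR adjusted p = 0.0372) and of -0.11 per filled slot (limma adjusted p = 0.525). Centred on the scrambled controls it was -0.20 and did not pass (edgeR adjusted p = 0.213). It was lost without TC28a2 replicate 2 or 3 or SW1353 replicate 1 or 2 (0.0734 to 0.177). The second had -0.11, -0.16 and -0.19 in TC28a2 and -0.26, -0.36 and -0.31 in SW1353, with a small difference of -0.15 and a small error (SE 0.03, edgeR adjusted p = 0.00297). Per filled slot the difference was larger, at -0.85 (limma adjusted p = 3.96e-09), and on sums DESeq2 did not call it (adjusted p = 0.147). Its elements had the deepest coverage of all. C142703669T had 108868 TC28a2 DNA counts in a mean of 249 slots, and it differed by -0.25 (SE 0.05, edgeR adjusted p = 0.00644; 0.0577 without SW1353 replicate 3). Centred on the scrambled controls the position lay at 0.02 (edgeR adjusted p = 0.691), so its direction was not kept.

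Other alleles called below slot 500 stood at positions that did not pass when their elements were summed. Whether the alleles of a position differ from each other in this was not tested. C82188180T on chromosome 11 had -0.58, -0.12 and -0.13 in TC28a2 and 1.80, 0.72 and 0.70 in SW1353. Its difference of 1.34 (SE 0.35, edgeR adjusted p = 0.0319) was the largest of the elements called higher in SW1353 below slot 500, in 49 filled DNA slots in each line. The other elements of that position differed by -0.32, -0.25 and 0.61, and the summed position by 0.39 (SE 0.26, edgeR adjusted p = 0.520). Without the highest slot of each element the difference was 0.80 (edgeR adjusted p = 0.124), and the call was also lost without any TC28a2 replicate or without SW1353 replicate 1 (0.0716 to 0.138).

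At position 82166434 of the same chromosome, G82166434C had -0.37, -0.02 and -0.06 in TC28a2 and 0.70, 0.77 and 0.79 in SW1353, a difference of 0.90 (SE 0.25, edgeR adjusted p = 0.0415). It fell to 0.21 without the highest slot (edgeR adjusted p = 0.781), its other elements differed by -0.07 to 0.28, and the summed position by 0.32 (edgeR adjusted p = 0.383). C82878267G on chromosome 16, in CDH13, had 0.30, 0.09 and 0.16 in TC28a2 and 0.94, 1.36 and 0.90 in SW1353. It differed by 0.88 (SE 0.24, edgeR adjusted p = 0.0433), its position by 0.48 (edgeR adjusted p = 0.0906), and the other 3 elements by -0.06, 0.39 and 0.43. T16707122A on chromosome 9, in the zinc-finger gene BNC2, had 0.68, 0.82 and 0.19 in TC28a2 and 1.23, 1.22 and 1.62 in SW1353. All 4 elements of its position lay above 0, at 0.14 to 0.80. It differed by 0.80 (SE 0.22, edgeR adjusted p = 0.0436), its position by 0.46 (edgeR adjusted p = 0.0615), and the allele by 0.51 without the highest slot (edgeR adjusted p = 0.108). The calls of the alleles at 82166434 and 82878267 were lost without any 1 replicate (0.0669 to 0.170), and that at 16707122 without TC28a2 replicate 1 or 3 or any SW1353 replicate (0.0763 to 0.201).

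A82250360C on chromosome 11 was the thinnest of these. It had 0.11, 0.38 and 0.59 in TC28a2 and -1.35, -0.74 and -0.83 in SW1353, from 34 filled DNA slots in TC28a2 and 15.3 filled RNA slots in SW1353. The lines did not overlap, and the difference was -1.34 (SE 0.37, edgeR adjusted p = 0.0442). The reference element of this position lay at 0.11, the other alternatives at -0.77 and -0.20, and the summed position differed by -0.24 (SE 0.21, edgeR adjusted p = 0.628). The call was lost without any 1 replicate (0.0571 to 0.184).

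Elements of one position agreed less below slot 500 than at it. Over 1121 positions, with only their elements below slot 500 counted, the SD of the difference within a position was 0.29 and that of the position means 0.21. The difference of the reference element correlated with the mean of its alternatives with r = 0.34 over 1107 positions, and both had the same sign in 66.4%. In activity itself the same pairs correlated with r = 0.82 in TC28a2 and 0.79 in SW1353. Over 248 positions, with only their elements at slot 500 counted, the difference correlated with r = 0.72. These are descriptions, since the elements of a position share their sequence and libraries. Alleles thus agreed far more closely in measured activity than in measured difference between lines. The median SE of a single difference was 0.27 for reference and for alternative elements below slot 500, beside the SD of 0.29 within a position. At slot 500 it was 0.17 for both, beside an SD of 0.17 within a position. The part of measurement error in the lower agreement was not tested.

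Scrambled controls give the calls that sequences with no designed regulatory function produced. Of 191, edgeR called 2 (1.05%) higher in SW1353 and 3 (1.57%) higher in TC28a2. The share higher in TC28a2 is above the 0.0839% of all elements, and the share higher in SW1353 below the 6.31%. Cartilage peaks made up 374 of the 451 calls behind the 6.31%. Reference and alternative elements were called higher in SW1353 in 1.03% and 1.34%, close to the scrambled controls. Among elements that reached the last slot the shares were 6.25% for scrambled controls, 5.35% for reference and 6.16% for alternative elements. Higher in TC28a2 were 0% of all reference and 0.068% of all alternative elements. Whether these shares differ was not tested. The scrambled control of chr11:82186075-82186275 had -0.53, -0.55 and -0.84 in TC28a2 and -1.39, -2.53 and -1.72 in SW1353, a difference of -1.24 (SE 0.33, edgeR adjusted p = 0.0371). It was inactive in both lines and filled 31.3 RNA slots in SW1353 against 149 in TC28a2, and per filled slot it differed by -0.18. The controls of chr16:82878494-82878694 and chr16:82882018-82882218 differed by -0.81 (SE 0.22, edgeR adjusted p = 0.0440) and -0.66 (SE 0.18, edgeR adjusted p = 0.0420), both above 0 in TC28a2 and below 0 in SW1353, and by -0.26 and -0.41 per filled slot.

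The scrambled controls called higher in SW1353 had both reached slot 500. That of chr20:21879634-21879834 had -0.62, -0.71 and -0.26 in TC28a2 and 0.22, -0.10 and 0.34 in SW1353, a difference of 0.68 (SE 0.18, edgeR adjusted p = 0.0332). That of chr20:21897253-21897453 differed by 0.60 (SE 0.15, edgeR adjusted p = 0.0261). Per filled slot they differed by 0.17 and 0.12. Each of the 5 calls was lost without some replicates. The 2 controls on chromosome 16 lost it without any 1 replicate (edgeR adjusted p = 0.0606 to 0.195). That on chromosome 11 lost it without any replicate other than SW1353 replicate 1 (0.0691 to 0.138), that at 21879634 without TC28a2 replicate 1 or 2 or SW1353 replicate 1 or 3 (0.122 to 0.147), and that at 21897253 without TC28a2 replicate 2 or 3 or SW1353 replicate 1 or 3 (0.0746 to 0.130).

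Among the deletion elements at the FTO locus, the one with the highest mean activity of both lines was not called between lines. In FTO on chromosome 16, which encodes an RNA demethylase, the element that lacks the base at 53822169 had activities of 2.48, 2.53 and 2.18 in TC28a2 and 2.57, 2.46 and 2.89 in SW1353. Its reference element had 0.44, 0.72 and 0.76 in TC28a2 and 0.55, 1.09 and 0.93 in SW1353. The lines overlapped for both elements. The deletion element differed by 0.25 (SE 0.14, edgeR adjusted p = 0.446) and the reference by 0.22 (SE 0.16, edgeR adjusted p = 0.616), which does not show that the lines act alike. Centred on the scrambled controls, the deletion element differed by 0.46 and passed (edgeR adjusted p = 0.0345).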

How the data were processed

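The study measured 12 libraries, and a sample that links barcodes to sequences was not analysed here. The authors deposited whole-number counts for each barcode slot, allele and replicate, up to 500 slots, without normalization. The program that made the counts and the cleaning of barcodes are not given in the sources used here. Per the labels' protocols a molecular identifier was read, but whether counts are of molecules or reads is not stated. Per the file headers the other values are replicate and slot numbers. Between replicates, counts at the same slot correlated weakly, with r = 0.088 to 0.298 over the first 10 slots in DNA and TC28a2 RNA and -0.109 to 0.021 in SW1353 RNA. No barcode was therefore matched, and the spread between replicates may include one between sets of barcodes.

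Counts were summed over slots. Rows of controls repeat their values under both alleles and were used once. edgeR 4.0.16 (R 4.3.3) fitted the interaction with a block for each DNA and RNA pair and TMM factors, tested on simulated data. DESeq2 1.42.0 and limma 3.58.1 (pseudocount 1), other scalings, filters and summaries, and leaving out each replicate, were alternatives. A limma variance trend and adjustment below slot 500 alone were added after seeing the data. Named were called elements whose replicates did not overlap: the 10 largest differences each way below slot 500, 5 at it, 5 positions and 5 peaks each way, all called scrambled controls, and the FTO deletion. The members and lists were chosen with earlier results of these data known.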

Additional observations from a re-analysis of the deposited data

Results flagged for a closer look

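The test of the difference between lines itself passed for 451 elements higher in SW1353 and 6 higher in TC28a2, and for 74 and 5 variant positions (edgeR quasi-likelihood test, adjusted over all elements or positions).

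Among the named items, 9 also had all replicates of the lines on opposite sides of 0. Above 0 in SW1353 and below it in TC28a2 were C82188180T on chromosome 11 (difference 1.34), G82166434C on chromosome 11 (0.90), and the cartilage peaks at chr16:89788061-89788261 (0.87) and chr11:62554513-62554713 (1.36). Above 0 in TC28a2 and below it in SW1353 were T102979207A on chromosome 10 (-1.43), A82250360C on chromosome 11 (-1.34), the scrambled controls of chr16:82878494-82878694 (-0.81) and chr16:82882018-82882218 (-0.66), and position 82925918 of chromosome 16 (-0.45). The place of 0 depends on the scaling, as described above. These items were picked among calls with non-overlapping replicates, a choice that favours opposite sides of 0. How many of all elements or positions had opposite sides was not counted. Replicates did not overlap between lines in 935 (13.1%) of 7149 elements with SW1353 above and 523 (7.32%) with TC28a2 above. For the 1556 variant positions these were 175 (11.2%) and 153 (9.83%).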

How the results depend on the processing

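As reported, edgeR called 451 elements higher in SW1353 and 6 higher in TC28a2, of which 11 and 4 lay below slot 500, and 74 and 5 variant positions, of which 11 and 3 lay below slot 500. The counts below are given in that order, SW1353 first. Library totals without TMM factors gave 198 and 32 elements, 1 and 21 below slot 500, 52 and 12 positions, and 6 and 7 positions below slot 500. Centring on scrambled controls gave 874 and 1, 71 and 1 below slot 500, 213 and 0 positions, and 70 and 0 below slot 500. DESeq2 gave 621 and 20 elements, 25 and 14 below slot 500, 96 and 9 positions, and 19 and 7 positions below slot 500. limma on log2 ratios gave 0 and 0 elements (695 and 302 at an unadjusted p under 0.05), 0 and 0 below slot 500 (110 and 283), 12 and 0 positions, and 0 and 0 below slot 500 (54 and 97). With a variance trend limma gave 448 and 11, and 11 and 7 below slot 500. Per filled slot limma gave 0 and 0 elements (473 and 353 at an unadjusted p under 0.05) and 0 and 0 below slot 500 (382 and 197). It gave 4 and 4 positions, and 4 and 0 below slot 500. With the trend, per filled slot, it gave 3 and 13 elements, 0 and 1 below slot 500, 23 and 44 positions, and 21 and 10 below slot 500. Without the highest slot of each element and library edgeR gave 690 and 36, 28 and 30 below slot 500, 136 and 21 positions, and 30 and 17 below slot 500. With log2 ratios divided by the SD of the line limma gave 0 and 0 elements (634 and 148), 0 and 0 below slot 500 (207 and 128), 0 and 0 positions (159 and 58), and 0 and 0 below slot 500 (78 and 52). On these divided ratios, with the trend, it gave 225 and 7 elements, 4 and 4 below slot 500, 70 and 0 positions, and 12 and 0 below slot 500. The fit below slot 500 gave 0 and 0 elements and 9 and 0 positions, and adjustment below slot 500 alone gave 0 and 0 elements and 0 and 0 positions. A minimum of 30 DNA slots or none moved no count by over 1.5 times.

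Median differences moved with the scaling. For reference, alternative, cartilage peak and scrambled elements below slot 500 and cartilage peaks at slot 500, reported at -0.10, -0.11, 0.04, -0.26 and 0.52, library totals gave -0.28, -0.29, -0.14, -0.44 and 0.34. Scrambled centring gave 0.12, 0.11, 0.25, -0.044 and 0.74, and the mean per filled slot 0.014, 0.0083, 0.085, 0.088 and 0.0047. Division by the SD of the line gave -0.038, -0.026, -0.0014, -0.12 and 0.70. The fit below slot 500 gave 0.0059, 0.00089, 0.14 and -0.16 for the first 4. DESeq2 gave -0.077 for reference and -0.082 for alternative elements, and the highest slot left out gave 0.57 for peaks at slot 500.

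Same-numbered DNA and RNA libraries did not deviate together (r = -0.011 to 0.030), so the numbers are not shown to pair them. Without the replicate block edgeR called 499 and 11 elements, 14 and 9 below slot 500, 82 and 7 positions, and 13 and 5 positions below slot 500. Of the named calls 3 needed the block and did not pass without it: T102979207A on chromosome 10 (edgeR adjusted p = 0.0711), the cartilage peak at chr12:49503861-49504061 (0.105) and the scrambled control of chr16:82882018-82882218 (0.0866). The median difference of alternative elements was then -0.091.

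With any 1 replicate left out, counts were 305 to 358 and 2 to 8 elements, 3 to 9 and 1 to 7 below slot 500, 42 to 72 and 1 to 5 positions, and 4 to 14 and 0 to 3 below slot 500. Medians were -0.12 to -0.09 for reference elements, -0.11 to -0.090 for alternative elements, 0.008 to 0.05 for peaks and -0.30 to -0.24 for scrambled controls below slot 500, and 0.50 to 0.54 for peaks at slot 500.

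Among named items 3 changed sign. The FTO deletion element went to -0.10 per filled slot and -0.91 with division by the SD of the line, under limma with and without the trend. Its reference went to -0.014 per filled slot. Position 142703669 of chromosome 6 went to 0.022 with scrambled centring. The cause was not tested. Slots past 500 limit the elements at slot 500, and the number of filled slots limits those below it: elements with 5 to 9 DNA slots, left out here, had a median difference of -0.64 over 37 elements, and those with 10 to 14 slots -0.07 over 40.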

Other observations

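Positions less than 1 Mb apart were joined into 25 loci, which differed in the share of elements at slot 500. Over all loci, edgeR called 1.03% of reference and 1.34% of alternative elements higher in SW1353. Among those at slot 500 the shares were 5.35% and 6.16%. Of all variant positions 4.76% were called higher in SW1353, and 17.2% of those at slot 500. The locus near UNCX on chromosome 7 had 59.8% of its 174 elements at slot 500. There 9 elements (5.17%) and 10 of 45 positions were called higher in SW1353, all of these positions at slot 500. The locus near WNT9A on chromosome 1 had 65.2% of 46 elements at slot 500, with 9 elements (19.6%) called. The largest locus, in the region of PAX1 on chromosome 20, had 23.4% of 995 elements at slot 500. It had 11 elements (1.11%) called higher in SW1353, near the share of all variant elements. Of its 183 positions below slot 500, 4 were called higher in SW1353 and 1 higher in TC28a2, beside 0.925% and 0.252% of all such positions. The locus near SOX6, a transcription factor gene of chondrocytes, had 3.44% of 262 elements at slot 500 and no call in either direction. All 30 elements near TBX1 on chromosome 22 were at slot 500, with a median difference of 0.22 and 3 (10%) called higher in SW1353. The locus at 149892872 to 149995265 of chromosome 1 had 62.5% of 16 elements at slot 500 and no call. These are too few elements to set it apart from the shares above. The locus in CSMD1 on chromosome 8 had 34.9% of 338 elements at slot 500 and 2 (0.592%) called. The locus at 17763139 to 17821038 of chromosome 12 had 14.4% of 368 elements there and 8 (2.17%) called. Over the loci, the median difference of elements below slot 500 ranged from -0.21 to 0.05, with 0.05 near LBX1 over 23 elements.

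Insertions and deletions did not stand out. Below slot 500 the median difference was -0.04 over 70 deletions, -0.01 over 43 insertions and -0.11 over 3442 substitutions, and edgeR called none of the deletions or insertions (3 and 1 with an unadjusted p under 0.05).

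Positions close together shared little of their difference between lines. The differences of 2 positions at most 50 bp apart correlated with r = 0.22 over 164 pairs, those 51 to 100 bp apart with r = 0.29 over 174 pairs and those 201 to 1000 bp apart with r = 0.02 over 2355 pairs. Over pairs with both positions below slot 500 the values were 0.13, 0.26 and 0.006. Neighbouring elements overlap in sequence, and a position enters several pairs.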
